A study of Mus musculus with 6 samples.

Results

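The genes analysed here are those for potassium channels in the newborn mouse hippocampus, with the subunits that assemble with or regulate these channels. Members were chosen by name and level, as the protein-coding genes whose symbol starts with Kcn and whose mean normalised count over the 6 libraries was at least 10, leaving out Kcnj8 and Kcne2 by name. Of 91 protein-coding Kcn genes in a table of 24935 genes, 78 were members, and 74 of them are described here. A further 11 had a mean under 10, namely Kcna7, Kcna10, Kcne1, Kcne3, Kcnj13, Kcnj15, Kcnk7, Kcnk15, Kcnmb3, Kcnn4 and Kcnv2. Just under the limit were Kcnn4 with a mean of 9.81 and Kcnj13 with 9.78, and just above it were Kcng3 with 15.8 and Kcnk5 with 17.5. Each of the 74 genes also reached the limit in the mean of either group taken alone, so no member entered only through the group in which it was high.

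The study asked how oxygen above the normal level in early life alters signalling in the hippocampus, the brain region for forming memories. The libraries came from the left hippocampus of C57BL/6 mice at P14 (P for postnatal day), 1 library per mouse, with 3 mice kept in room air (air) and 3 pups placed with their dams in 85% oxygen from P2 to P14 (hyperoxia). RNA was polyA-selected, built into strand-specific libraries and read as paired ends, and the deposited value of each gene is a DESeq2-normalised count, which is a read count divided by 1 size factor per library. The column names give the group and a number that is not that of an animal, so libraries are named here as air 1 to 3 and hyperoxia 1 to 3, and every direction below follows the group in these names, which no gene in these counts can check. The sources used here do not all give the same sign for hyperoxia against air, and the counts do not settle it, so air and hyperoxia mean throughout the libraries labelled as such, and every higher and lower would turn over if the names were exchanged. RNA was taken from whole tissue, so fewer cells of a type and less RNA per cell cannot be told apart.

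Potassium channels let potassium leave the cell, which holds the resting membrane potential near the potassium equilibrium potential, ends the action potential and sets how often a neuron fires. Voltage-gated (Kv) channels are tetramers of pore-forming subunits of the same family. Silent subunits form no working channel alone and change the properties of the Kv2 channels that they join, and accessory subunits such as Kv beta and KChIP proteins bind to the pore-forming ones and change their number at the membrane or their gating. Inward rectifiers, tandem-pore-domain (K2P) leak channels and channels opened by calcium or sodium complete the set. In the hippocampus, Kv4 channels damp dendritic excitation in pyramidal neurons, Kv3 channels allow fast firing of interneurons, KCNQ channels damp repeated firing, and Kir4.1 in astrocytes clears potassium from the extracellular space.

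More of these genes were higher than lower in hyperoxia-exposed mice, and pore-forming genes, which are 52 of the 74, held most of the rises. Of the 74 genes, 20 were higher and 7 were lower in hyperoxia than in air at an adjusted p under 0.05 (limma on log2-transformed normalised counts, to which 1 was added, fitted with a trend of variance on mean and adjusted by Benjamini-Hochberg over 17778 genes). Over all genes tested, 30.5% were called in either direction, 14.9% were higher and 15.6% were lower. Over the 14931 protein-coding genes among them, these shares were 32.5%, 16.3% and 16.2%. The 27 called genes are thus 36.5% of the 74, and 27.0% were higher and 9.46% lower. The median log2 fold change, hyperoxia minus air, was 0.21 over the 74 genes, -0.01 over all genes tested and 0.01 over the protein-coding ones. Among 52 pore-forming genes, 18 (34.6%) were higher and 2 (3.85%) lower, with a median log2 fold change of 0.29. Among 9 silent subunits, 1 was higher and 2 were lower, with a median of -0.10, and among 13 accessory subunits 1 was higher and 3 were lower, with a median of -0.01. The share called was 33.3% in the silent and 30.8% in the accessory class, near that of all genes, and the differences between these classes were not tested. The groups did not overlap in 36 of the 74, or 48.6%, against 46.1% of all genes tested and 48.0% of the protein-coding ones. These 36 included all 27 called genes. Over the whole table, 98.3% of genes called higher and 99.4% of those called lower did not overlap either. For a single gene, 3 mice in each group allow no p below 0.1 in an exact two-sided permutation test, so the calls rest on the fit across all genes, and 12 of the 47 that were not called had an unadjusted p under 0.05.

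**Figure D1:**
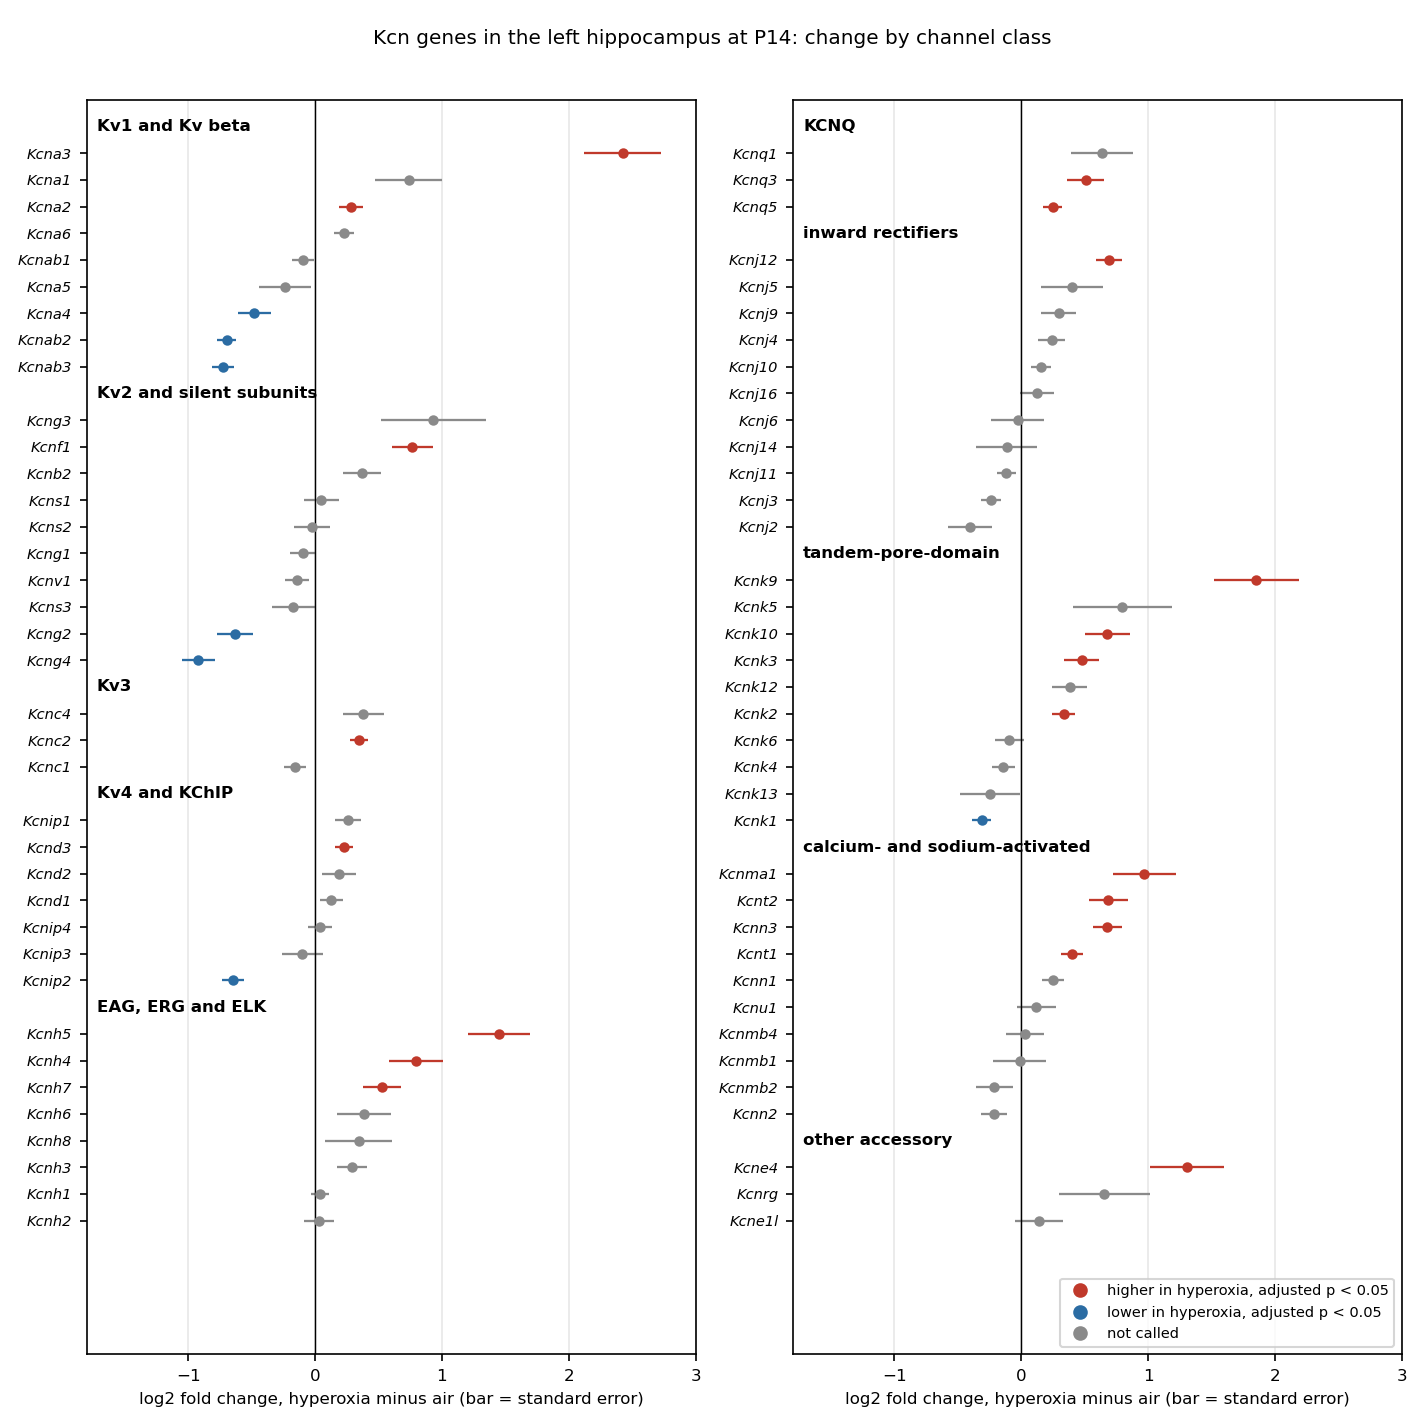
Log2 fold change of each of the 74 Kcn genes, hyperoxia minus air, on log2 of the normalised count plus 1, with the standard error as bars and genes grouped by channel class. Red points are the 20 genes called higher, blue points the 7 called lower and grey points those not called; Kcna3 at 2.42 and Kcng4 at -0.92 mark the ends of the range plotted.

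The summed count of accessory genes was lower in hyperoxia, mostly through Kcnab2, while the sums of the silent subunits overlapped between the groups. The 13 accessory genes summed to 40104 ± 135 normalised counts in air and 28709 ± 1866 in hyperoxia (SD, n = 3), and the ranges did not overlap. Kcnab2 alone went from a mean of 22996 to 14208 and Kcnip2 from 6333 to 4064, while 9 of the 13 were not called. The 9 silent subunits summed to 8033 ± 385 in air and 8166 ± 809 in hyperoxia. These sums carry no test.

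Per kilobase of annotated exon, Kcnab2 was the most abundant of the 74 genes in both groups. Its level was 4123 ± 58.9 normalised counts per kb in air and 2547 ± 183 in hyperoxia (SD, n = 3). Next in air came Kcnip2 at 1822 ± 36.3, Kcnk1 at 1528 ± 91.3 and Kcnj10 at 1496 ± 8.34, of which Kcnk1 and Kcnj10 differed by less than their spread. In hyperoxia the second place was held by Kcnj10 at 1672 ± 144, followed by Kcnk1 at 1231 ± 75.0, Kcnip2 at 1169 ± 126 and Kcnip3 at 1095 ± 290, where the last 3 lay within their spread. The lowest levels per kb in air were those of Kcng3 at 2.98, Kcnk5 at 3.76, Kcnk9 at 3.83 and Kcna3 at 5.90.

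Promoter sequence is shown for called members whose 250 bases before the annotated start lie outside the annotated gene. Of these, the 3 that rose most and the 3 that fell most are set beside each other. Larger rises passed over, with no window or one reaching into the gene, were those of Kcnk9, Kcne4, Kcnma1 and Kcnh4. Passed over in the same way among the falls were Kcnab3, Kcnab2 and Kcng2. Windows are those of RefSeq on GRCm38.p6, each 250 bases long and read 5′ to 3′ on the strand of the gene. Of the 74 genes, 55 matched a window by symbol and chromosome. Capitals mark the only searched motif found in these 6 windows, the antioxidant response core with the letters TGACNNNGC on either strand. The windows are Kcna3 at chr3:107035912-107036161 (plus strand), Kcnh5 at chr12:75177333-75177582 (minus), Kcnf1 at chr12:17176889-17177138 (minus), Kcng4 at chr8:119635681-119635930 (minus), Kcnip2 at chr19:45816064-45816313 (minus) and Kcna4 at chr2:107290339-107290588 (plus).
Kcna3: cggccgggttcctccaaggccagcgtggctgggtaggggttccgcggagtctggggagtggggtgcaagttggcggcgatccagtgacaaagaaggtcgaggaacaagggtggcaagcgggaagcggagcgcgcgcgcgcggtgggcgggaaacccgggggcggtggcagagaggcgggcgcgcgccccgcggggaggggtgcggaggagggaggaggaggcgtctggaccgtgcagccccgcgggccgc
Kcnh5: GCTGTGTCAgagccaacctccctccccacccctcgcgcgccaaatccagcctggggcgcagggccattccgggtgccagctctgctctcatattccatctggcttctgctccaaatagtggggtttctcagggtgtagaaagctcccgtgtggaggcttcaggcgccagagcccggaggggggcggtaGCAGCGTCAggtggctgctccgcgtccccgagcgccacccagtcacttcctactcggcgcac
Kcnf1: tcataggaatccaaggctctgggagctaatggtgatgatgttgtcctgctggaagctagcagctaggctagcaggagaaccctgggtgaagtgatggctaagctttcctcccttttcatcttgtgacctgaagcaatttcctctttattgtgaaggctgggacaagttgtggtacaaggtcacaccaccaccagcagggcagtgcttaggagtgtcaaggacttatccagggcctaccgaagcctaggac
Kcng4: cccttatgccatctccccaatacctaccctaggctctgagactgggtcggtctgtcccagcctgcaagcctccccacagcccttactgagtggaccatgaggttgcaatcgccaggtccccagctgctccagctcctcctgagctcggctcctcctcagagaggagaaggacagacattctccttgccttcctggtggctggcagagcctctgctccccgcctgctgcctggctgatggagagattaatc
Kcnip2: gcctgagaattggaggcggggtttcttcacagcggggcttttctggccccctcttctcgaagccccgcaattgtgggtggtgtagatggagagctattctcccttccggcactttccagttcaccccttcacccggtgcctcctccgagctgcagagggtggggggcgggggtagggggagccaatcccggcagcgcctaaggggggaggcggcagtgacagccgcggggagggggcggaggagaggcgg
Kcna4: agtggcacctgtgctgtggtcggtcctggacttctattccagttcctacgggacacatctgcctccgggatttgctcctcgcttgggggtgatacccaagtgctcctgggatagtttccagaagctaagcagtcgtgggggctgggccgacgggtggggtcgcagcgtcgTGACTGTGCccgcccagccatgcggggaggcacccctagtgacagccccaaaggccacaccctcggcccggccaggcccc

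The share of G and C in these windows was 74.4% in Kcna3, 65.6% in Kcnh5, 51.2% in Kcnf1, 60.4% in Kcng4, 66.8% in Kcnip2 and 65.2% in Kcna4. The median was 61.6% over the 55 member windows and 52.4% over all 32817 windows. The antioxidant response core, to which NRF2 dimers are known to bind, was matched in 10 of 55 member windows, or 18.2%, against 10.2% of all windows. Among called members with a window, it was matched in 2 of 16 that were higher, Kcne4 and Kcnh5. It was also matched in 2 of 5 that were lower, Kcna4 and Kcnab2. The Kcnh5 window held the core at 250 and at 62 bases before the start and the Kcna4 window at 80 bases before it. All 250 bases of the Kcnab2 window and 153 of the Kcne4 window lie inside the annotated gene. Some member windows lie far from the GENCODE start, as for Kcnj12 (43240 bases) and Kcnip4 (239248 bases). The cAMP response element TGACGTCA and the EGR motif GCGTGGGCG were matched in 0 of 55 member windows, against 1.55% and 0.536% of all windows. TATAAA and the AP-1 motif TGAGTCA were each matched in 1 of 55, against 12.4% and 4.46%. A match describes letters in a window and not a site in use.

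Kv1 channels sit in axons and at synaptic terminals, and the largest rise of any member was in this family. Kcna3 (ENSMUSG00000047959.4, chr3:107036169-107038070 in GENCODE M21 on GRCm38), which encodes Kv1.3, a channel best known from lymphocytes and microglia, had normalised counts of 12.2, 12.2 and 9.24 in the air libraries and 69.8, 43.0 and 87.8 in the hyperoxia libraries. It was at a low level in air and all hyperoxia libraries lay above all air libraries, hyperoxia 2 the least. The log2 fold change was 2.42 ± 0.30 (SE, adjusted p = 0.000915, limma), a 5.37-fold difference on this scale. The 5 microglia markers summed to between 9600.2 and 9638 in air and between 9911 and 11076 in hyperoxia, with Cx3cr1 higher at 0.42 (adjusted p = 0.00294, limma) and the other 4 not called, and their part in the Kcna3 result was not tested. Kcna2, the axonal Kv1.2 and the most abundant Kcna gene per kb, was higher by a small amount, with 4803, 5102 and 5125 in the air libraries and 6580.2, 5274 and 6522 in the hyperoxia libraries. The lowest hyperoxia library lay just above the highest air library, and the log2 fold change was 0.28 ± 0.09 (SE, adjusted p = 0.0447, limma). Kcna4, which encodes the rapidly inactivating Kv1.4, was lower, with 1001.1, 1028 and 833 in the air libraries and 785, 571 and 705 in the hyperoxia libraries, and a log2 fold change of -0.48 ± 0.13 (SE, adjusted p = 0.0203, limma). Kcna1 and Kcna6 were not called at 0.74 ± 0.26 (SE, adjusted p = 0.0598, limma) and 0.23 ± 0.08 (SE, adjusted p = 0.054, limma), and Kcna5 had a log2 fold change of -0.24. Without hyperoxia 2, Kcna1 was at 1.06 and called, with an adjusted p of 0.000664 (limma).

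The Kv beta proteins, cytoplasmic partners of Kv1 with an aldo-keto reductase fold, were lower for 2 of 3 genes. Kcnab2, the most abundant Kcn gene per kb, had 22617, 23200.1 and 23171 in the air libraries and 13176, 15222 and 14226 in the hyperoxia libraries. The air libraries lay within a narrow range and every hyperoxia library was far below it, with a log2 fold change of -0.70 ± 0.08 (SE, adjusted p = 0.000543, limma). Kcnab3 had 777, 745 and 787 in air and 453, 448 and 496 in hyperoxia. Its groups were as cleanly apart as those of Kcnab2, and the log2 fold change was -0.72 ± 0.08 (SE, adjusted p = 0.000678, limma). Kcnab1, the remaining Kv beta gene, had 2742, 2773 and 2722 in the air libraries and 2835, 2284 and 2639 in the hyperoxia libraries and was not called, with a log2 fold change of -0.09 and a 95% interval from -0.29 to 0.10. The summed count of the 3 Kv beta genes was 26512 ± 325 in air and 17260 ± 750 in hyperoxia (SD, n = 3), whereas that of the 6 Kcna genes was 8949 ± 198 in air and 10824 ± 1212 in hyperoxia, with every hyperoxia library above the air range.

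Within Kv1, the shares of Kcna4 and Kcna3 in the summed level per kb differed between the groups, while that of Kcna2 did not move. Kcna4 made up 16.9 ± 2.25% of the 6 Kcna members in air and 9.93 ± 0.687% in hyperoxia (SD, n = 3). Kcna3 went from 0.505 ± 0.0881% to 2.42 ± 0.578%, and Kcna2 was the largest at 35.9 ± 1.38% and 36.0 ± 0.464%. Shares within a family are not independent of each other and carry no test.

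Kv2 channels carry most of the delayed rectifier current of hippocampal neurons. Kcnb2 (Kv2.2) had 786, 719 and 714 in the air libraries and 1085, 731 and 1099 in the hyperoxia libraries. Hyperoxia 1 and 3 lay above the air range and hyperoxia 2 within it, and the log2 fold change of 0.37 ± 0.15 (SE, adjusted p = 0.0831, limma) was not called. Without hyperoxia 2 it was 0.56 and called (adjusted p = 0.000275, limma), and with the correction for length and GC content it was -0.06 and not called.

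Among the silent subunits that join Kv2, Kcnf1, which encodes Kv5.1, was higher, with 1486, 1312 and 1399 in the air libraries and 3209.7, 2174 and 1928 in the hyperoxia libraries. All hyperoxia libraries lay above the air range, hyperoxia 1 the most, and the log2 fold change was 0.77 ± 0.16 (SE, adjusted p = 0.0071, limma). Kcng4 (Kv6.4) was lower, with 557, 579 and 502 in air and 244, 343 and 283 in hyperoxia. No hyperoxia library reached the air range, and the log2 fold change was -0.92 ± 0.13 (SE, adjusted p = 0.00143, limma). Kcng2 (Kv6.2) had 1077, 1129.5 and 1129 in the air libraries and 553, 862 and 775 in the hyperoxia libraries, and the log2 fold change was -0.63 ± 0.14 (SE, adjusted p = 0.0102, limma). The most abundant silent subunit per kb, Kcng1 (Kv6.1), had 2845, 2684 and 2411 in air and 2490.1, 2756 and 2192 in hyperoxia and a log2 fold change of -0.10, with a 95% interval from -0.32 to 0.12. Of the Kcns genes, Kcns2 had 594, 590.2 and 544 in the air libraries and 583, 453 and 687 in the hyperoxia libraries, and Kcnv1 had 1145, 1175 and 1028 in air and 1123, 980.4 and 930.5 in hyperoxia. Both overlapped between the groups, and their log2 fold changes were -0.02 and -0.14. The Kcns genes and Kcnv1 were not called, with fold changes between -0.17 (Kcns3) and 0.05 (Kcns1), nor was Kcng3 at 0.93 ± 0.41 (SE, adjusted p = 0.115, limma).

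In the Kv3 family, whose fast channels let neurons fire at high rates, Kcnc2, which encodes Kv3.2, was higher, with 1984, 1968 and 2045 in air and 2549, 2427 and 2661 in hyperoxia. The spread within each group was small and the groups did not overlap, with a log2 fold change of 0.35 ± 0.07 (SE, adjusted p = 0.00546, limma). Kcnc4 (Kv3.4) and Kcnc1 (Kv3.1) were not called. Kcnc4 had 2372, 2083 and 2172 in the air libraries and 3515, 3170.0 and 2128 in the hyperoxia libraries, so that hyperoxia 3 lay within the air range while the others lay above it, and its log2 fold change was 0.38 ± 0.16 (SE, adjusted p = 0.0984, limma). Kcnc1 had 4128, 3869 and 4135 in air and 3755, 3239 and 3914 in hyperoxia, and its log2 fold change was -0.16 with a 95% interval from -0.35 to 0.03.

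The interneuron marker Pvalb, which marks fast-firing cells that use Kv3 channels, was lower, with 643, 693 and 660 in the air libraries and 324, 459 and 319 in the hyperoxia libraries and a log2 fold change of -0.88 (adjusted p = 0.00208, limma). Of the 7 interneuron markers, Pvalb was lower, Vip was higher and 5 were not called, and their summed count was between 22633 and 26102 in air and between 20815 and 27594 in hyperoxia. The part of these cells in the results on Kv3 genes was not tested.

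**Figure D2:**
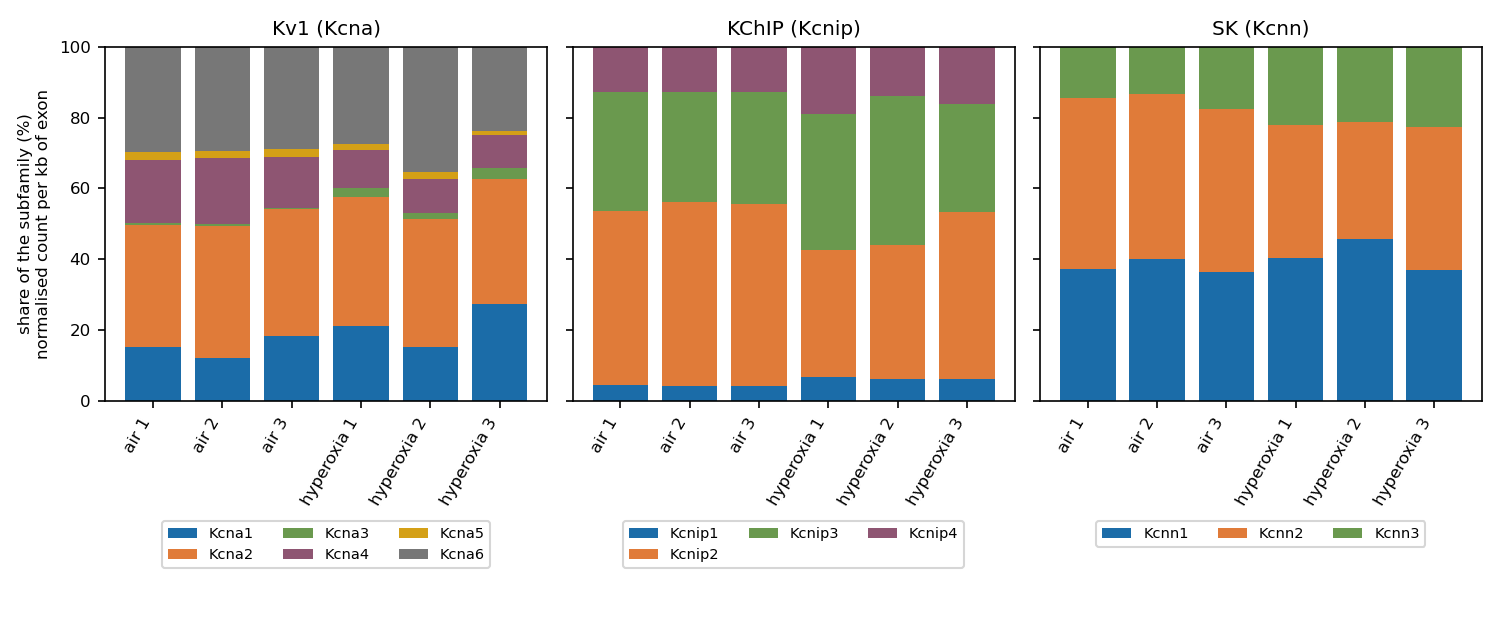
Share (%) of each gene in the summed normalised count per kb of exon of its subfamily, per library, for the Kv1 (Kcna), KChIP (Kcnip) and SK (Kcnn) members. Kcnip2 fills 49.3% to 52.2% of the KChIP bar in air and 36.0% to 47.3% in hyperoxia.

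Kv4 channels carry the somatodendritic A-type current. Of their pore-forming and KChIP genes, Kcnd3 was called higher, Kcnip2 was called lower and the others were not called. Kcnd2, which encodes Kv4.2, had 3797, 3791 and 3729.8 in the air libraries and 4638, 3367 and 5084 in the hyperoxia libraries. Hyperoxia 1 and 3 lay above the air range and hyperoxia 2 below it, and the log2 fold change of 0.19 ± 0.13 (SE, adjusted p = 0.304, limma) was not called. Without hyperoxia 2 it was 0.36 and called, with an adjusted p of 0.000895 (limma). Kcnd3 (Kv4.3) was higher by 0.23 ± 0.07 (SE, adjusted p = 0.0375, limma), the smallest rise that was called, and Kcnd1 (Kv4.1) was not called at 0.13. With the correction for length and GC content Kcnd3 was at 0.04 and not called. Kcnip2, the most abundant KChIP gene per kb, encodes a calcium sensor that raises Kv4 at the membrane, and had 6234, 6475 and 6289 in air and 3559, 4333 and 4301 in hyperoxia. All hyperoxia libraries lay below all air libraries, hyperoxia 1 the lowest, and the log2 fold change was -0.65 ± 0.09 (SE, adjusted p = 0.00112, limma). Kcnip1, Kcnip3 and Kcnip4 were not called, at log2 fold changes of 0.26, -0.10 and 0.04. Kcnip2 made up 49.3%, 52.2% and 51.5% of the KChIP level per kb in the air libraries and 36.0%, 38.0% and 47.3% in the hyperoxia libraries. The DPP proteins, which also join Kv4, went in opposite directions. Dpp10 rose from 788, 758 and 746 in air to 2514, 1720 and 1402 in hyperoxia, and its log2 fold change was 1.25 (adjusted p = 0.0013, limma). Dpp6, with 17832, 17299 and 16707 in air and 13828, 13770.4 and 13774 in hyperoxia, fell by 0.32 on the log2 scale (adjusted p = 0.00659, limma).

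All 8 genes of the EAG, ERG and ELK channels (Kcnh) had a fold change above 0, and 3 (37.5%) were called higher. Of all 17778 genes tested, 8772 were above 0 and 14.9% were called higher. Kcnh5, which encodes the EAG2 channel, had 36.7, 47.8 and 35.9 in the air libraries and 141, 77.0 and 125 in the hyperoxia libraries. The groups were apart, with hyperoxia 2 nearest to air, and the log2 fold change was 1.45 ± 0.24 (SE, adjusted p = 0.00271, limma). Kcnh4, which encodes an ELK channel, had 112, 83.4 and 97.5 in air and 235, 154 and 133 in hyperoxia. The lowest hyperoxia library exceeded the highest air library, and the log2 fold change was 0.79 ± 0.21 (SE, adjusted p = 0.0201, limma). Kcnh7, an ERG channel gene, was higher by 0.53 ± 0.15 (SE, adjusted p = 0.0263, limma). With the correction for length and GC content Kcnh7 was at 0.11 and not called. Kcnh3, an ELK channel gene and the most abundant of the family per kb, had 3101, 2767 and 3079.9 in the air libraries and 3828, 4208 and 3012 in the hyperoxia libraries. Hyperoxia 3 lay within the air range, and the log2 fold change was 0.29 ± 0.12 (SE, adjusted p = 0.085, limma). Kcnh1 and Kcnh2, for the first EAG and ERG channels, were at 0.04 and 0.03 and turned below 0 under at least 1 alternative setting, and Kcnh6 and Kcnh8 were not called at 0.39 and 0.34.

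KCNQ channels carry the M-current, which restrains repeated firing, and Kcnq3 and Kcnq5 were called higher. Kcnq3 had 5739, 5421 and 5937 in the air libraries and 8908, 6185 and 9642 in the hyperoxia libraries. Hyperoxia 2 lay near the air range while hyperoxia 1 and 3 lay far above it, and the log2 fold change was 0.51 ± 0.14 (SE, adjusted p = 0.025, limma). Kcnq5 had 3225, 3364 and 3604 in air and 4022, 3795 and 4299 in hyperoxia. All hyperoxia libraries lay above all air libraries, and the log2 fold change was 0.25 ± 0.08 (SE, adjusted p = 0.0343, limma). With the correction for length and GC content Kcnq3 was at 0.17 and Kcnq5 at 0.05, and neither was called. Kcnq1 had a log2 fold change of 0.64 ± 0.25 (SE, adjusted p = 0.0775, limma), and its reads cannot be told from those of its antisense gene Kcnq1ot1 if counting did not use the strand, since Kcnq1ot1 had a mean of 1656 and Kcnq1 of 41.6.

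Inward rectifiers held few calls, with 1 of 11 (9.09%) higher and 0 lower, against 14.9% and 15.6% of all genes tested. Kcnj12, which encodes Kir2.2, had 188, 179 and 182 in the air libraries and 312, 298 and 281 in the hyperoxia libraries. Both groups were tight and clearly apart, and the log2 fold change was 0.69 ± 0.10 (SE, adjusted p = 0.0017, limma). Kcnj10, which encodes Kir4.1 of astrocytes and is the most abundant of these genes per kb, had 8114, 8039 and 8119.7 in air and 8551, 9938 and 8627 in hyperoxia. All hyperoxia libraries lay above all air libraries, but the difference did not pass the test, with a log2 fold change of 0.16 ± 0.08 (SE, adjusted p = 0.151, limma) and a 95% interval from -0.02 to 0.33. The 6 astrocyte markers held 2 higher, 1 lower and 3 not called, and their sum was between 88256 and 89298 in air and between 79392 and 89016 in hyperoxia. Kcnj11, the pore of the KATP channel, had 1302, 1319.8 and 1243 in the air libraries and 1245, 1192 and 1130.3 in the hyperoxia libraries, and its log2 fold change of -0.12 ± 0.07 (SE, adjusted p = 0.26, limma) was not called. Its partner Abcc8, which encodes the sulfonylurea receptor SUR1, fell by 0.46 on the log2 scale, from 2147, 2096 and 2032 to 1588, 1377 and 1606 (adjusted p = 0.00327, limma).

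Kcnj3 was the member nearest to the threshold without a call. It encodes GIRK1, a channel subunit opened by G proteins downstream of GABA-B receptors, and had 4666, 4647 and 4572 in the air libraries and 4109.5, 3516 and 4193 in the hyperoxia libraries. The groups did not overlap, and the log2 fold change was -0.24 ± 0.08 (SE) with an adjusted p of 0.0503 (limma), so that it was called lower under 8 of 17 alternatives. The other GIRK genes, Kcnj5, Kcnj6 and Kcnj9, were not called, at log2 fold changes of 0.40, -0.03 and 0.30. Gabbr1, for a GABA-B receptor subunit, was lower at -0.25 (adjusted p = 0.0274, limma) and Gabbr2 was not called at 0.03. Kcnj2, Kcnj4, Kcnj14 and Kcnj16 had log2 fold changes of -0.40, 0.24, -0.11 and 0.12 and were not called.

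Tandem-pore-domain channels, which pass the leak current of the resting membrane, held 4 higher and 1 lower gene of 10. These are 40% and 10%, against 14.9% and 15.6% of all genes tested. Kcnk9, which encodes the acid-sensitive TASK3, had 46.1, 42.7 and 52.4 in the air libraries and 258, 90.6 and 218 in the hyperoxia libraries. The air libraries were low and even, while hyperoxia 1 and 3 were far above them and hyperoxia 2 lay between. The log2 fold change was 1.85 ± 0.33 (SE, adjusted p = 0.00373, limma), a 3.62-fold difference on this scale. Its acid-sensitive relative Kcnk3 (TASK1) was higher by 0.48 ± 0.14 (SE, adjusted p = 0.0268, limma), and the exons of Kcnk3 overlap those of Gm9899 on the other strand, which had 55.2% of its mean count. The mechanosensitive TREK genes were higher too, Kcnk10 by 0.68 ± 0.18 (SE, adjusted p = 0.0175, limma) and Kcnk2 by 0.33 ± 0.09 (SE, adjusted p = 0.0242, limma). Kcnk1 (TWIK1), the most abundant of these genes per kb, was lower, with 3463, 3590.1 and 3191 in air and 2698, 2615 and 2938 in hyperoxia, and a log2 fold change of -0.31 ± 0.08 (SE, adjusted p = 0.0142, limma). Kcnk4, Kcnk5, Kcnk6, Kcnk12 and Kcnk13 were not called, with log2 fold changes of -0.14, 0.80, -0.09, 0.38 and -0.25.

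The class of channels opened by calcium or sodium was counted together with the accessory Kcnmb genes and the pH-gated Kcnu1. It held 4 higher (40%) and 0 lower genes of 10, against 14.9% and 15.6% of all genes tested. Kcnma1, which encodes the BK channel that repolarises spikes after calcium entry, had 949, 889 and 1096 in the air libraries and 2328, 1168 and 2570.3 in the hyperoxia libraries. Hyperoxia 2 lay just above the air range and the other hyperoxia libraries far above it, and the log2 fold change was 0.97 ± 0.25 (SE, adjusted p = 0.0161, limma). The sodium-activated Kcnt1 (Slack) had 1944, 1697 and 2037 in air and 2685, 2357 and 2442 in hyperoxia, with all hyperoxia libraries above the air range and a log2 fold change of 0.40 ± 0.09 (SE, adjusted p = 0.00914, limma), and Kcnt2 (Slick) was higher by 0.69 ± 0.15 (SE, adjusted p = 0.00935, limma). Kcnn3, which encodes the SK3 channel of the afterhyperpolarisation, was higher by 0.68 ± 0.11 (SE, adjusted p = 0.00281, limma). Kcnn2 (SK2), the most abundant SK gene per kb in air, had 1713, 1581 and 1595 in the air libraries and 1492, 1205 and 1539 in the hyperoxia libraries. All hyperoxia libraries lay below all air libraries, yet the log2 fold change of -0.21 ± 0.10 (SE, adjusted p = 0.131, limma) was not called. Kcnn2 made up 47.1 ± 1.17% of the SK level per kb in air and 37.1 ± 3.70% in hyperoxia, and Kcnn3 15.1 ± 2.24% and 21.9 ± 0.697% (SD, n = 3).

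The accessory beta subunits of BK were not called. Kcnmb2, their most abundant gene per kb, had 111, 94.6 and 113 in air and 88.4, 89.4 and 96.5 in hyperoxia and a log2 fold change of -0.21, with Kcnmb1 at -0.01 and Kcnmb4 at 0.03. Kcnmb4 overlaps the opposite-strand gene Kcnmb4os2, whose mean count was 143% of its own. Kcnu1, which encodes the pH-gated channel of sperm, had 98.9, 105 and 121 in the air libraries and 104, 135 and 115 in the hyperoxia libraries and was not called at 0.12, and Kcnn1 (SK1) was not called at 0.25 ± 0.09 (SE, adjusted p = 0.0571, limma).

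Of the remaining accessory genes, Kcne4, a single-pass subunit that inhibits several Kv channels, was higher, with 14.1, 24.4 and 25.7 in the air libraries and 39.8, 57.7 and 63.7 in the hyperoxia libraries. It was at a low level in every library, the groups did not overlap, and the log2 fold change was 1.31 ± 0.29 (SE, adjusted p = 0.00957, limma). Kcne1l, the most abundant Kcne member per kb, had 365, 336 and 299 in air and 280.2, 499 and 352 in hyperoxia and was not called at 0.14. Kcnrg, which encodes a cytoplasmic protein that suppresses Kv channels, had 14.1, 12.2 and 30.8 in the air libraries and 34.5, 24.9 and 26.1 in the hyperoxia libraries, with air 3 inside the hyperoxia range, and was not called at 0.66.

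**Figure D3:**
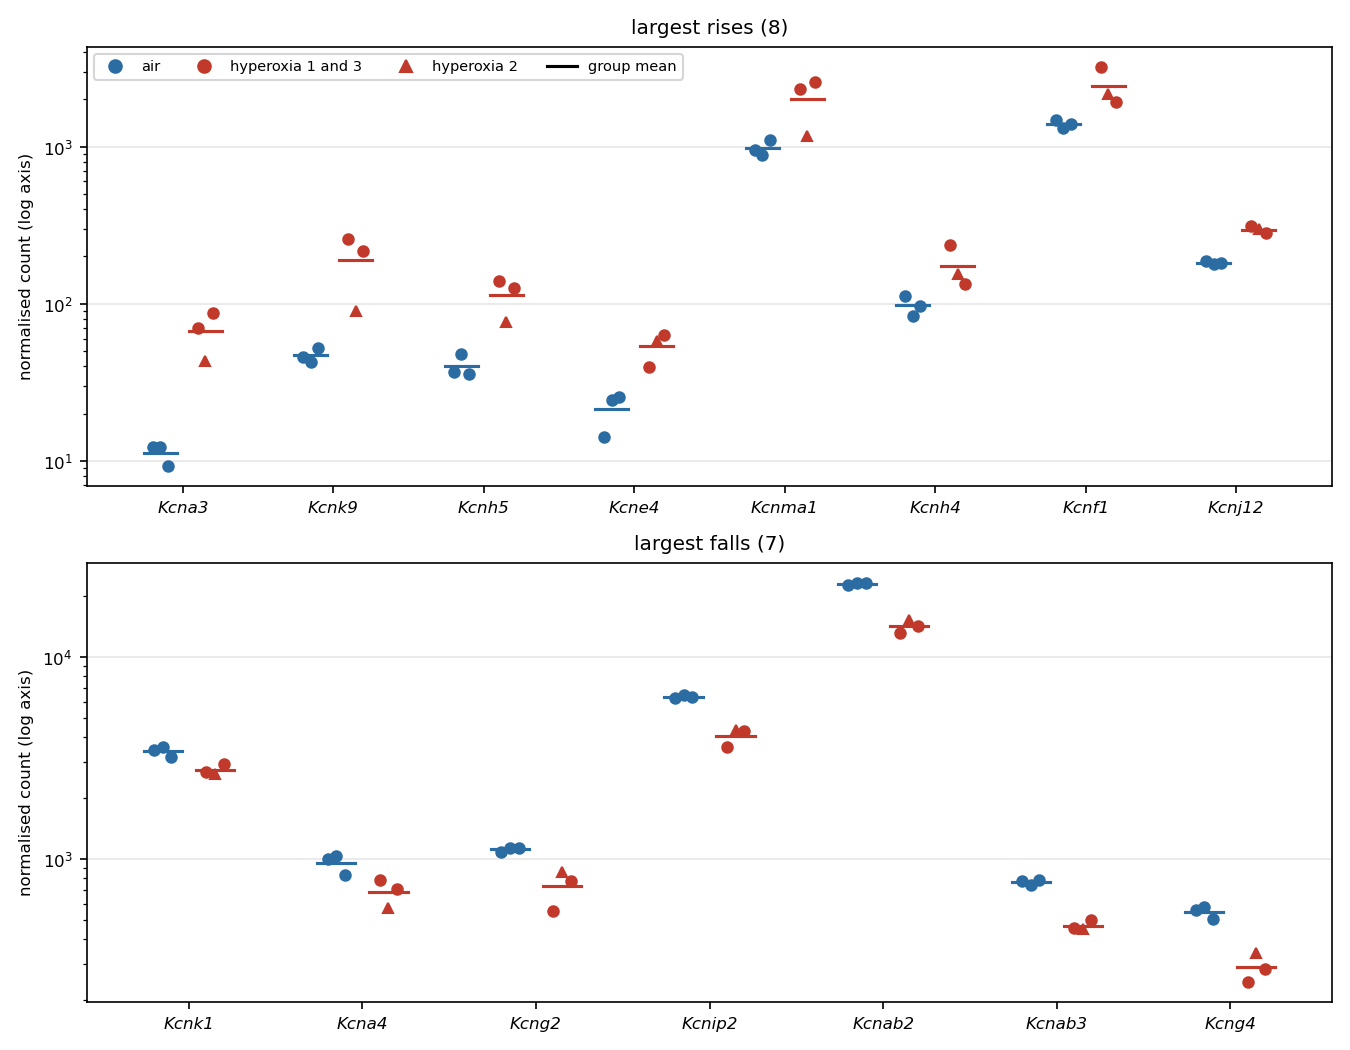
Normalised count (log axis) in each library for the 8 called genes that rose most and the 7 called lower, with air in blue, hyperoxia in red, hyperoxia 2 as a triangle and bars for the group means. Only called genes whose groups do not overlap were drawn. Hyperoxia 2 lies nearest to air in Kcna3, Kcnk9, Kcnh5 and Kcnma1 among the rises and in Kcnab2, Kcnip2, Kcng2 and Kcng4 among the falls.

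Of a list of 29 genes for partners of these channels and for related HCN channels, 28 were tested and 7 were higher and 4 lower, or 25.0% and 14.3%, against 14.9% and 15.6% of all genes tested. Those higher were Dpp10, Dlg2, Adam22, Lrrc55, Vapb, Hcn3 and Hcn4, and those lower were Dpp6, Abcc8, Gabbr1 and Amigo1. The median log2 fold change of the list was 0.03. Dlg2, a scaffold, and Adam22, a membrane protein, are both found with Kv1 at axons, and were higher by 0.46 ± 0.08 and 0.32 ± 0.09 (SE) with adjusted p of 0.00389 and 0.0261 (limma). Cntnap2 and Cntn2, which hold Kv1 beside the node of Ranvier, were not called at 0.01 and 0.04. Lrrc55, an auxiliary subunit of BK, was higher by 0.40 ± 0.12 (adjusted p = 0.03, limma). Amigo1, a membrane partner of Kv2, was lower at -0.22 (adjusted p = 0.0339, limma) and Vapb, which binds Kv2 at contacts of the endoplasmic reticulum with the plasma membrane, was higher at 0.22 (adjusted p = 0.0261, limma). The hyperpolarisation-activated genes Hcn3 and Hcn4 were higher by 0.40 and 0.58, and Hcn2 was not called at 0.18.

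Markers of cells and of neighbouring regions moved with the groups as well. In 13 marker lists no gene was at 0 in all libraries, and the lists of the hippocampus itself were well above 0 in every library. Of 6 neocortex markers 3 were higher and 0 lower, and their summed count was between 6606 and 7086 in air and between 8062 and 12208 in hyperoxia. Of 7 thalamus markers 4 were higher and 0 lower, with sums from 3606 to 3875 in air and from 5761 to 7068 in hyperoxia. Of 6 oligodendrocyte markers 5 were lower and 0 higher, with sums from 211426 to 321844 in air and from 144727 to 177382 in hyperoxia. Of 6 dentate granule cell markers 4 were lower and 0 higher, with sums from 18275 to 18935 and from 12499 to 16885. Of 5 endothelial markers 3 were higher, with sums from 5273 to 5647 and from 6540.4 to 7622, and of 3 oligodendrocyte precursor markers 2 were higher, with sums from 10567 to 12363 and from 13930.3 to 14469. The 5 mural markers held 1 higher and 0 lower, with sums from 8910 to 9235 in air and from 9907 to 12016 in hyperoxia. The 5 CA1 and 5 CA3 pyramidal markers each held 1 higher gene, with 0 and 2 lower, and their sums overlapped between the groups. The choroid plexus list, with no gene called, stood apart in 1 library, with 8165 in hyperoxia 3 and between 472 and 1419 in the other libraries. The part of cell mixture or of dissection in any of the results on Kcn genes was not tested.

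**Figure D4:**
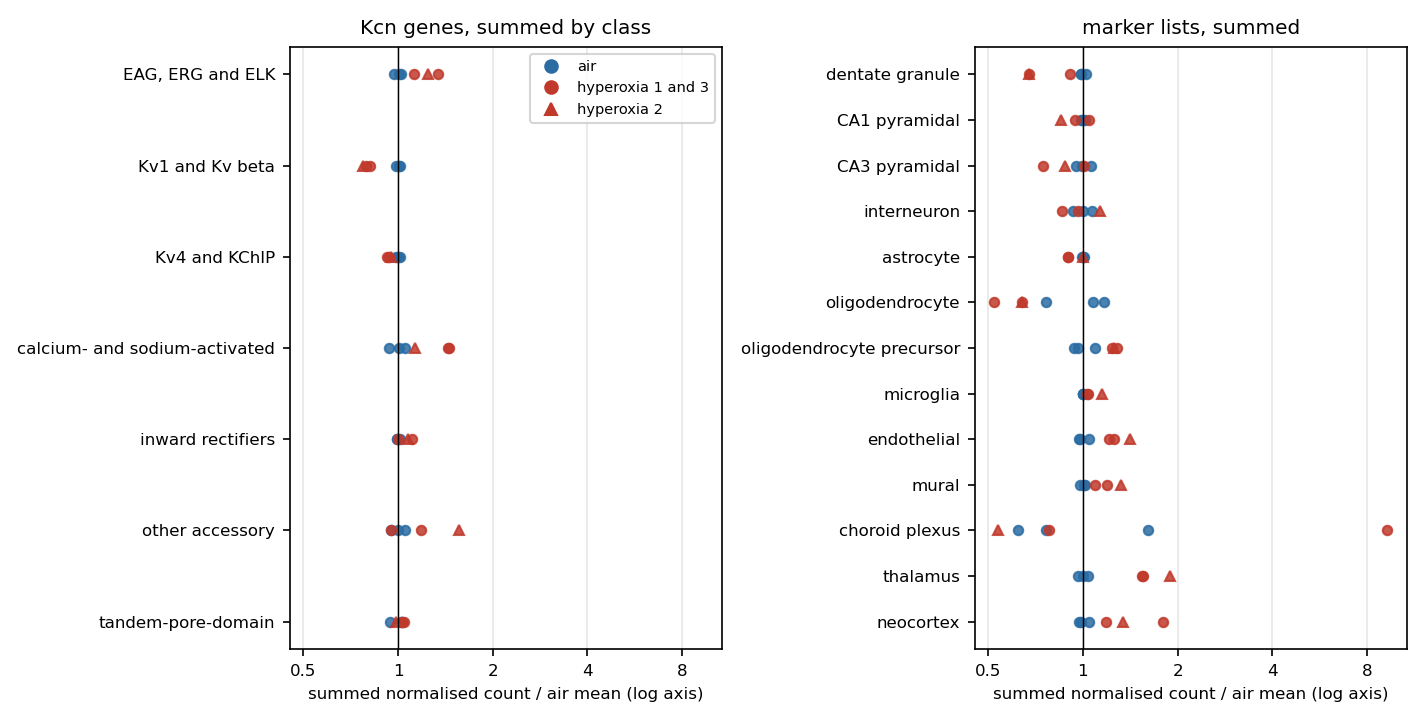
Summed normalised count of classes of Kcn genes (left) and of each marker list (right) in every library, divided by the mean of the air libraries, on a log axis. The Kv1 and Kv beta class lies below the air range in all hyperoxia libraries through its Kv beta genes, while the Kcna genes alone sum to 8795 to 9172 in air and 9424 to 11535 in hyperoxia. Below the air range as well are the Kv4 and KChIP class and the oligodendrocyte and dentate granule markers. The EAG, ERG and ELK class and the calcium- and sodium-activated class lie above the air range in all hyperoxia libraries. So do the microglia, thalamus, neocortex, endothelial, oligodendrocyte precursor and mural markers.

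Hyperoxia 2 was the least deeply sequenced library and differed most from the other libraries of its group. It had 30384052 reads on genes, against 34976005 to 38746972 in the other 5 libraries. The first principal component, with 52.7% of the variance, parted the groups, and hyperoxia 2 lay at one end of the second, with 19.5%. Among the 20 members called higher, hyperoxia 2 was the lowest of its group in 14, and among the 7 called lower it was the highest in 4. Without it, 24 members were higher and 8 lower, and these included all 27, while over all genes 7756 were called.

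Which calls changed when 1 library was left out was looked at for each in turn. Over all genes, 5425 calls became 3048 to 3662 when an air library was left out. They became 3378 without hyperoxia 1, 4982 without hyperoxia 3 and 7756 without hyperoxia 2. A group is smaller in such a fit, so a lost call does not by itself show dependence on 1 library. The rises of Kcna3, Kcnc2, Kcne4, Kcnf1, Kcnh5, Kcnj12, Kcnk9, Kcnn3, Kcnt1 and Kcnt2 and the falls of Kcnab2, Kcnab3, Kcng2, Kcng4 and Kcnip2 were called under every alternative in which they were tested, 15 genes in all. Without air 1, the calls of Kcna2, Kcnd3, Kcnh7, Kcnk10, Kcnma1, Kcnq3, Kcnq5, Kcna4 and Kcnk1 were lost, at adjusted p from 0.0648 to 0.158. Without air 2, those of the same 9 genes and of Kcnh4 and Kcnk3 were lost, at 0.0672 to 0.119. Without air 3, Kcna2, Kcnd3, Kcnh4, Kcnh7, Kcnk2, Kcnk3, Kcnq3 and Kcnq5 were lost, at 0.0532 to 0.0988. Without hyperoxia 1, Kcna2, Kcnd3, Kcnh4, Kcnh7, Kcnk10, Kcnk2, Kcnk3, Kcnma1, Kcnq3, Kcnq5 and Kcnk1 were lost, at 0.056 to 0.16. Without hyperoxia 3, Kcna2, Kcnd3, Kcnq3 and Kcnq5 were lost, at 0.052 to 0.0997, and without hyperoxia 2 none of the 27 was lost. Calls were also gained, without hyperoxia 2 by 4 rises (Kcna1, Kcnb2, Kcnd2 and Kcnk12) and the fall of Kcnj3, at adjusted p from 0.000275 to 0.0399. Without hyperoxia 3 they were gained by 8 rises (Kcna6, Kcnc4, Kcnh3, Kcnip1, Kcnj16, Kcnj4, Kcnj9 and Kcnn1) and the fall of Kcnj3, at 0.00114 to 0.0298. Kcnrg was called higher without air 3 (0.0477) and Kcnj2 lower without hyperoxia 1 (0.0285). For the 27 called genes the loss is of the call and not of the direction, which stayed the same in these 6 fits.

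**Figure D5:**
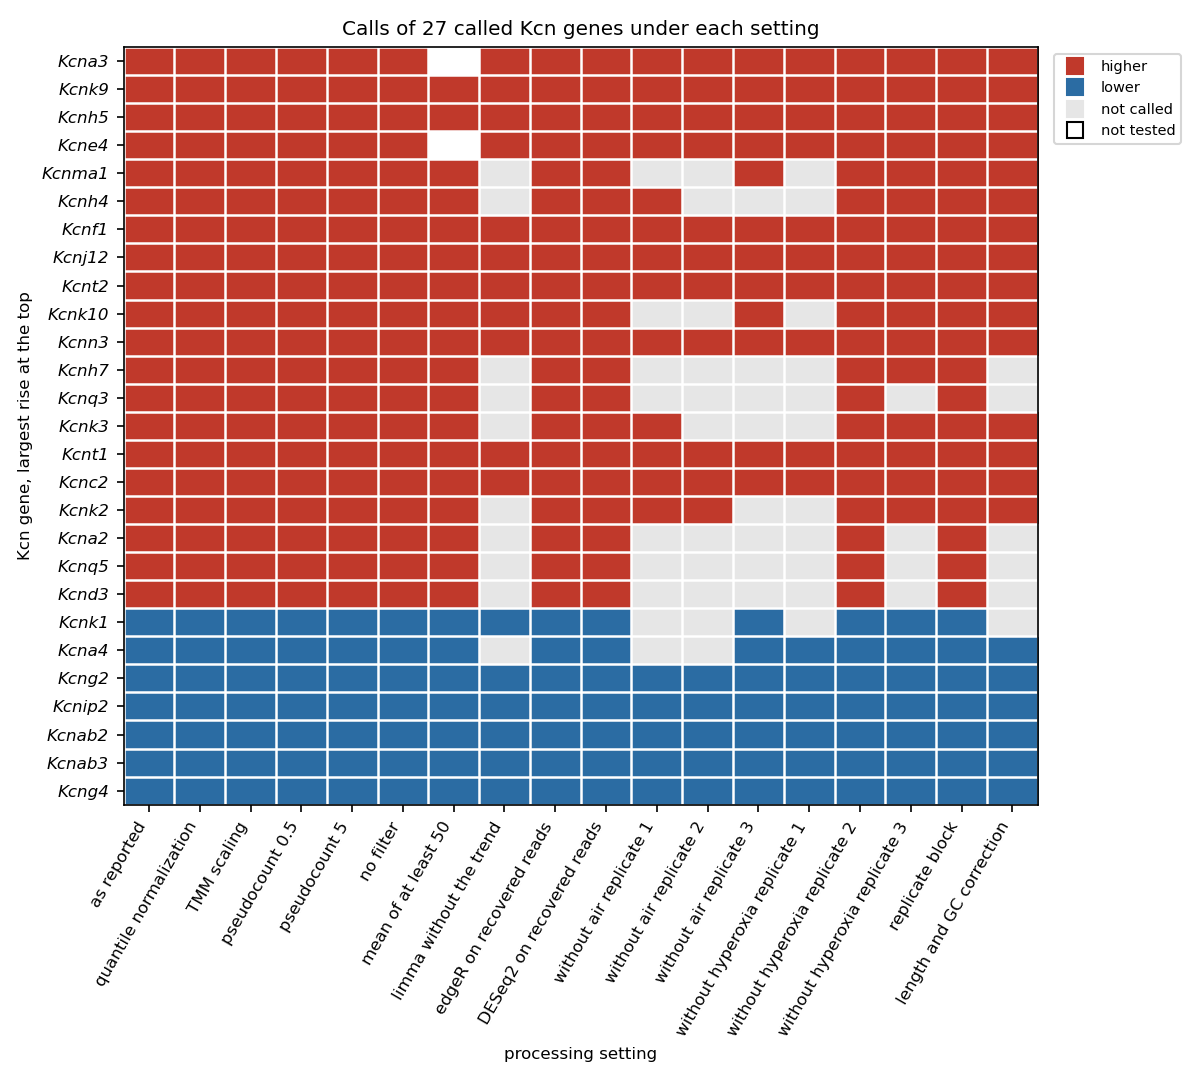
Call of each of the 27 called Kcn genes (rows, largest rise at the top) under each processing setting (columns), with red for higher, blue for lower, grey for not called and white for not tested. In 15 rows no tested setting is grey, and most grey cells fall in fits that leave out 1 library, in the fit without the trend and in the correction for length and GC content.

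Transcript length and GC content were looked at because long genes tended to be higher over the whole table. Over 17735 genes the Spearman correlation of the log2 fold change with transcript length was 0.28 and with GC content -0.21, and over the 74 Kcn genes 0.20 and -0.04, given as descriptions since genes share libraries. The median transcript length was 6214.5 bases in the 20 members called higher and 3114 in the 7 called lower, against 4506.5 and 2714 over all genes called higher and lower, with GC content of 48.5% and 55.2% in the members. After each library's trend on length and GC content was removed, 23 members were higher and 11 lower. These are 31.1% and 14.9% of the members, against 15.9% and 19.0% of all genes in that fit. The rises of Kcna2, Kcnd3, Kcnh7, Kcnq3 and Kcnq5 and the fall of Kcnk1 were then no longer called, at adjusted p from 0.0523 to 0.717, and Kcna2 moved to -0.03. Added under this correction were 8 rises (Kcna1, Kcnc4, Kcnh3, Kcnj4, Kcnj9, Kcnk12, Kcnn1 and Kcnq1) and 5 falls (Kcnab1, Kcnc1, Kcnj2, Kcnj3 and Kcnv1). Kcna3 under the correction was at 2.59 and called.

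Reads at shared exons are a further limit, since it is not stated whether counting used the strand. The exons of 21 members overlap those of another gene in the table, in 19 of them on the opposite strand, and 10 of the 27 called members are among these. Only 2 called members, Kcnk3 and Kcnh7, have a partner at 10% or more of their own mean count, with Gca on the other strand at 22.2% of that of Kcnh7.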

How the data were processed

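The authors deposited DESeq2-normalised counts per gene for 6 hippocampal libraries, a signal made by dividing each library's read count by 1 size factor. The submitters' processing notes name FastQC, STAR 2.5.3a, HTSeq and DESeq2. No source used here gives the genome build, the annotation or the strand setting of the counting. A second deposited table, with the authors' own comparison of the groups (log2 fold changes, standard errors, p-values and mean counts), was not used. Dividing by the step that 1 read is worth gave whole reads, to within 0.01, for 100% of values in every library, and these reads numbered from 30384052 to 38746972 on genes, with a median of 449 to 576 per tested gene. Replicates differed by more than sampling noise (chi-square per gene from 6.51 to 47.2), so each counted once. The labels describe separate mice.

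The 17778 genes whose mean over the 6 libraries reached 10 were tested for hyperoxia minus air with limma 3.58.1 (R 4.3.3, variance trended on the mean). Values entered as log2(deposited value + 1), p-values were adjusted by Benjamini-Hochberg, and a gene was called at an adjusted p under 0.05. This scale understates the change of low genes. Standard errors and 95% intervals are those of this fit, and SDs are over the 3 libraries of a group. The fit was tested on simulated data before use. Alternatives were quantile normalization, TMM scaling, a pseudocount of 0.5 or 5, no filter or a minimum mean of 50, limma without the trend, edgeR 4.0.16 (quasi-likelihood) and DESeq2 1.42.0 on the recovered reads, each library left out, a replicate block, and subtraction, per library, of a smooth curve fitted on GC content and transcript length (mgcv 1.9.3, 17735 genes).

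Values in every library are given for the 8 called members that rose most and the 7 called lower, whose groups do not overlap, for the member with the highest mean count in each subfamily, and for Kcnj10, Kcnj11, Kcnq3, Kcnd2, Kcnma1 and Kcnn2. Kcnc4, Kcnj3, Kcnab1 and Kcnq5 were added after their values were seen, and Kcnc2, which meets none of these rules, is given as well. Of the members 4, and of the partner list 1 gene, are not reported here, and counts, medians, ranks and shares are over the other genes, with no sum or share for a class that is not complete. The members, the partner list and the 13 marker lists were chosen with earlier results of these data known. Lengths and positions are those of GENCODE M21 on GRCm38, which holds 99.7% of the gene identifiers, and lengths per kb are the union of annotated exons. Motif searches covered both strands. Tables were handled with Python 3.11.15 and pandas 2.3.3.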

Additional observations from a re-analysis of the deposited data

How the results depend on the processing

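Of 17 alternatives, the fit without the mean-variance trend lowered the number of Kcn genes called higher from 20 to 11, with 6 lower, and that of partner genes called from 11 to 5. In that fit 14.9% of the Kcn genes were higher and 8.11% lower, against 11.1% and 12.6% of all genes tested. Leaving out 1 library gave 10 to 24 Kcn genes higher, 5 to 8 lower, 4 to 13 partner genes and 3048 to 7756 genes in all. The length and GC correction raised the number called lower from 7 to 11, while the share called lower over all genes went from 15.6% to 19.0%. The other settings moved these counts by no more than 1.5 times, among them edgeR (22 higher, 7 lower, 5501 genes in all) and DESeq2 (26, 8 and 5611) on the recovered reads. Of the values of single Kcn genes, 1110 kept their direction and side of the threshold, 52 gained a call, 58 lost one and 28 changed sign, of which Kcna2 was the only called gene. The cause of these changes was not tested.

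Signs changed as follows. With the length and GC correction the log2 fold change was -0.031 in Kcna2, -0.061 in Kcnb2, -0.10 in Kcnh1, 0.0067 in Kcnip3, -0.020 in Kcnip4 and 0.011 in Kcnj14. It was 0.036 in Kcnj6 and 0.00051 in Kcns2 with edgeR, 0.040 and 0.0066 in these genes with DESeq2, and -0.026 in Kcnmb4 with quantile normalization. With each library left out in turn it ran from -0.080 to 0.34 in Kcne1l, -0.11 to 0.11 in Kcnh2, -0.29 to 0.10 in Kcnip3, -0.065 to 0.11 in Kcnip4, -0.30 to 0.048 in Kcnj14, -0.26 to 0.24 in Kcnj6, -0.47 to 0.018 in Kcnk13, -0.090 to 0.035 in Kcnmb1, -0.014 to 0.095 in Kcnmb4, -0.043 to 0.19 in Kcns1, -0.16 to 0.14 in Kcns2 and -0.34 to 0.019 in Kcns3.

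Libraries with the same number are not stated to share a litter or day. The correlation of their deviations from the group means across genes was -0.08, 0.13 and 0.10, so the numbers were not taken as pairs. With the number as a replicate block, 28 Kcn genes were higher and 8 lower, including all 27 of the main result, 13 partner genes were called, and 6211 genes in all.

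Mice of a group differed by more than sampling noise over all genes, and how far depth limits genes of each level was not tested. One mouse stands for its whole exposure, and exposure of litters or chambers is not given, so these cannot be told apart from oxygen.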

Other observations

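Kcn genes under the limit on the mean were not in the main fit. Kcnj13, an inward rectifier of the choroid plexus, had 6.59, 3.05 and 7.19 in the air libraries and 15.9, 12.5 and 13.5 in the hyperoxia libraries. Its exons share 623 bases with Gigyf2 on the other strand, which had a mean of 2392 against 9.78, so its reads cannot be told from those of Gigyf2 if counting did not use the strand. The choroid plexus marker Ttr had 272, 167 and 887 in air and 350.0, 183 and 7454 in hyperoxia. Kcnv2, for a silent subunit, had 0, 2.04 and 1.03 in air and 7.07, 4.53 and 2.90 in hyperoxia. Kcnn4, for the intermediate-conductance calcium-activated channel, had 7.53, 11.2 and 16.4 in air and 3.54, 12.5 and 7.72 in hyperoxia, and its groups overlapped. These Kcn genes were in the alternative without a filter, but no test result is given for them, since each had few reads per library.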
